A study of Homo sapiens with 15 samples.

Results

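SFPQ, NONO and PSPC1 encode the 3 human proteins of the DBHS family (Drosophila behaviour/human splicing). They were taken by name, with every row that carried their symbol. Each gene had a plain row and a row with the suffix .primary in both cell lines, which made 6 of 22542 rows in 22Rv1 and 6 of 22169 in LNCaP, or 3 of 15990 genes over both tables. The meaning of .primary is not stated in the sources used here, so a .primary row is treated below only as the second row of its gene. It could not be checked whether it stands for unspliced or intron-retaining RNA.

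DBHS proteins are nuclear RNA-binding proteins that pair with one another. Each carries RNA recognition motifs followed by a protein interaction domain and a coiled coil. With the long non-coding RNA NEAT1 they build paraspeckles, nuclear bodies that hold certain RNAs and proteins, and SFPQ and NONO also act in transcription, splicing and DNA repair. SFPQ transcripts are known to retain introns. An RNA-binding protein can bind its own transcript, and an antibody can also bring down a nascent protein while it is still attached to the mRNA being translated.

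RNA immunoprecipitation sequencing compares RNA brought down by an antibody with input RNA taken before precipitation. In 22Rv1 there were 2 libraries with an antibody against Brg1 (encoded by SMARCA4, a catalytic subunit of SWI/SNF, which moves nucleosomes), 2 with an antibody against Sfpq (the SFPQ protein), 3 with non-specific IgG and 2 of input. LNCaP had 2 each of Brg1, IgG and input, and no Sfpq library was analysed here for it. Both are established prostate cancer lines from ATCC, with no treatment given in the labels, and all cells were fixed in 0.3% formaldehyde (HCHO) for 30 min.

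Values are read shares (RPM), the reads recovered from the deposited signal per 1000000 recovered reads of the library. Libraries held 490879 to 47871438 reads in 22Rv1 and 22184 to 7506724 in LNCaP. The LNCaP IgG libraries were the shallowest, at 22184 and 46297 reads, so that 3 reads there equal 135 and 64.8 RPM. Of the prostate luminal markers, 6 of 9 had a row in 22Rv1, at a summed 222 to 229.8 RPM in input, and 9 of 9 in LNCaP, at 4689 to 4779. Of the markers of other cells, 1 of 8 (COL1A1) and 2 of 8 (COL1A1 and VWF) had a row, at a summed 17.6 to 20 and 52.2 to 52.9. Nothing in the labels says that replicates came from separate cultures, so p-values measure only the spread between these libraries, which may be technical. In lysates, fewer expressing cells and less RNA per cell cannot be told apart.

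The question was whether the Sfpq antibody over-represents the mRNA of its own target, as the Brg1 antibody does for SMARCA4. In 22Rv1 the plain SFPQ row was 1.73 times as abundant in Sfpq libraries as in input, and its .primary row was at 0.428 times input. Neither passed the test. SMARCA4 was at 47.5 times input in Brg1 libraries, and the enrichment of SMARCA4 in Brg1 was 27.4 times that of SFPQ in Sfpq. SMARCA4 itself was at 1.61 times input in Sfpq libraries, close to the value for SFPQ.

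SFPQ lies on chromosome 1 from 35176380 to 35193145 (RefSeq, GRCh38.p14). The plain SFPQ row held 826 and 735 RPM in Sfpq replicates A and B, 452 and 449 in input, 479.8 and 524 with Brg1, and 342, 206 and 344 with IgG (replicates A to C). Both Sfpq libraries stood above the 7 others, and the 3 IgG libraries were the lowest. The group means were 780.4 ± 64.8 (SD, n = 2) for the Sfpq antibody and 451 ± 1.85 (SD, n = 2) for input. Brg1 libraries averaged 502 ± 31.5 (SD, n = 2), and those of IgG 297 ± 79.4 (SD, n = 3).

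Sfpq exceeded input by 0.79 (SE 0.31, 95% interval 0.08 to 1.5) on the log2(share + 1) scale, with a limma adjusted p of 0.678. In this comparison limma called 0.0311% of all rows in either direction. The median row stood at -0.19, and SFPQ was at the 85.3 percentile of all rows, rank 3318 from the top of 22542, or at the 77.8 percentile of the 10855 plain rows. In the planned fit of only Sfpq and input the same 0.79 had a limma adjusted p of 9e-05, but 13818 of 22529 rows were then called. With only the IgG libraries left out, a choice made after seeing the data, it was 0.000197, with 13682 of 22540 rows called.

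The reference pair behaved otherwise. SMARCA4 (chromosome 19, 10961030 to 11062273, with only a plain row here) held 12446 and 16356 RPM in the 22Rv1 Brg1 libraries, 310 and 296 in input, 262, 265 and 308 in IgG and 486 and 492 in Sfpq. The Brg1 libraries stood far above all others, and both Sfpq libraries lay above input and IgG. Brg1 exceeded input by 5.55 (SE 0.25, 95% interval 4.98 to 6.12, limma adjusted p 0.000246), rank 2 of all rows, where limma called 0.0799% of rows. The upper bound of 1.5 for SFPQ in Sfpq lay below the lower bound of 4.98 for SMARCA4 in Brg1. In Sfpq against input SMARCA4 differed by 0.69 (SE 0.25, 95% interval 0.12 to 1.26, limma adjusted p 0.615), an interval that lies inside the one for SFPQ.

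**Figure D1:**
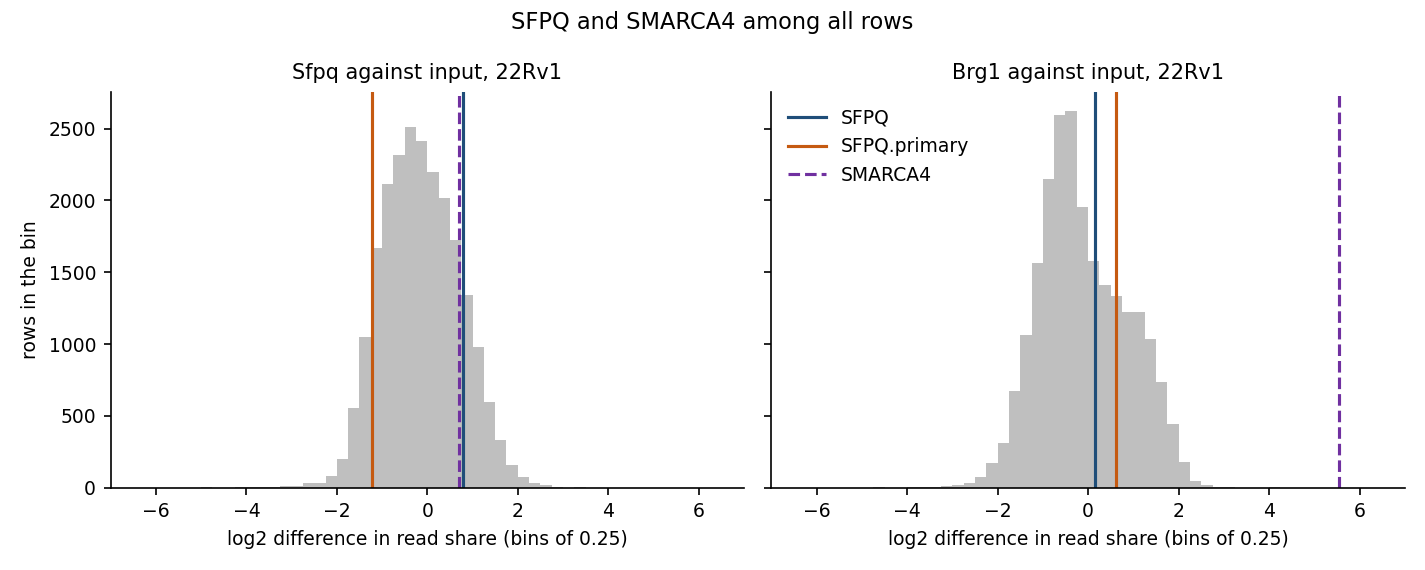
Number of 22Rv1 rows (vertical axis) by log2 difference in read share from input (horizontal axis, bins of 0.25) for the Sfpq and Brg1 antibodies. Vertical lines mark SFPQ, SFPQ.primary and SMARCA4. With Sfpq, SFPQ at 0.79 and SMARCA4 at 0.69 lay inside the bulk of rows, and with Brg1, SMARCA4 at 5.55 lay outside it.

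In LNCaP, SMARCA4 held 12763 and 10406 RPM in Brg1 and 211 and 218 in input, a ratio of means of 54.0. The IgG libraries held 7212 and 194, from 160 and 9 reads, so IgG replicate A was close to the Brg1 libraries and replicate B to input. The difference of Brg1 from input was 5.74 (SE 1.81, 95% interval 0.78 to 10.70), rank 3 of 22169, with a limma adjusted p of 0.290, and 0.0947% of rows were called. It was the same 5.74 without IgG replicate A or B, which enter it only through the spread. It passed the threshold without both, and in edgeR and DESeq2, at 5.65 to 5.81. Without IgG, in edgeR on library totals and in DESeq2, 5976, 3872 and 5581 of 22169 rows were called.

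Against IgG the SFPQ mRNA did pass. The Sfpq libraries exceeded the 3 IgG libraries by 1.43 (SE 0.28, limma adjusted p 0.0146), and no library of one group overlapped the other. However, 10.9% of all rows were called in this comparison, and the median plain row also stood at 1.41. SFPQ was at the 50.2 percentile of plain rows. The call was lost without Sfpq replicate A (limma adjusted p 0.170), without Sfpq replicate B (0.118), with a minimum mean of 10 (0.054) and in a fit of only these 2 groups (0.136). Against Brg1 the plain SFPQ row in Sfpq differed by 0.63 (SE 0.31, limma adjusted p 0.337), where 2.79% of rows were called.

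The .primary row of SFPQ went the other way. It held 34.0 and 45.6 RPM in Sfpq, 93.2 and 92.9 in input, 153 and 133 in Brg1, and 188, 131 and 59.1 in IgG. Both Sfpq libraries were below every other library, and both Brg1 libraries were above input. Sfpq differed from input by -1.22 (SE 0.52, 95% interval -2.42 to -0.02, limma adjusted p 0.751), at the 9.65 percentile of all rows and the 13.1 percentile of the 11687 .primary rows. The interval is that of a single row, not adjusted for the number of rows tested. In this comparison 1478 of 22542 rows had an unadjusted limma p under 0.05, and the median .primary row stood at -0.52.

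Against IgG SFPQ.primary differed by -1.50 (SE 0.48), which missed the threshold in limma (adjusted p 0.0878). It passed in DESeq2, which gave -1.94 with an adjusted p of 0.0171 and called 4160 of 22542 rows. At the deposited scaling it stood at 5.60, below the median row at 7.12. Without IgG replicate C, the shallowest 22Rv1 library with 29 SFPQ.primary reads, the difference was -1.97 and the limma adjusted p 0.00229. That fit called 8836 of 22542 rows. Against Brg1 the difference was -1.83 (SE 0.52, limma adjusted p 0.106). That passed the threshold without IgG replicate A (0.0342) and without replicate C (0.00866), which enter only through the spread. In those fits 3463 and 4373 of 22542 rows were called.

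**Figure D2:**
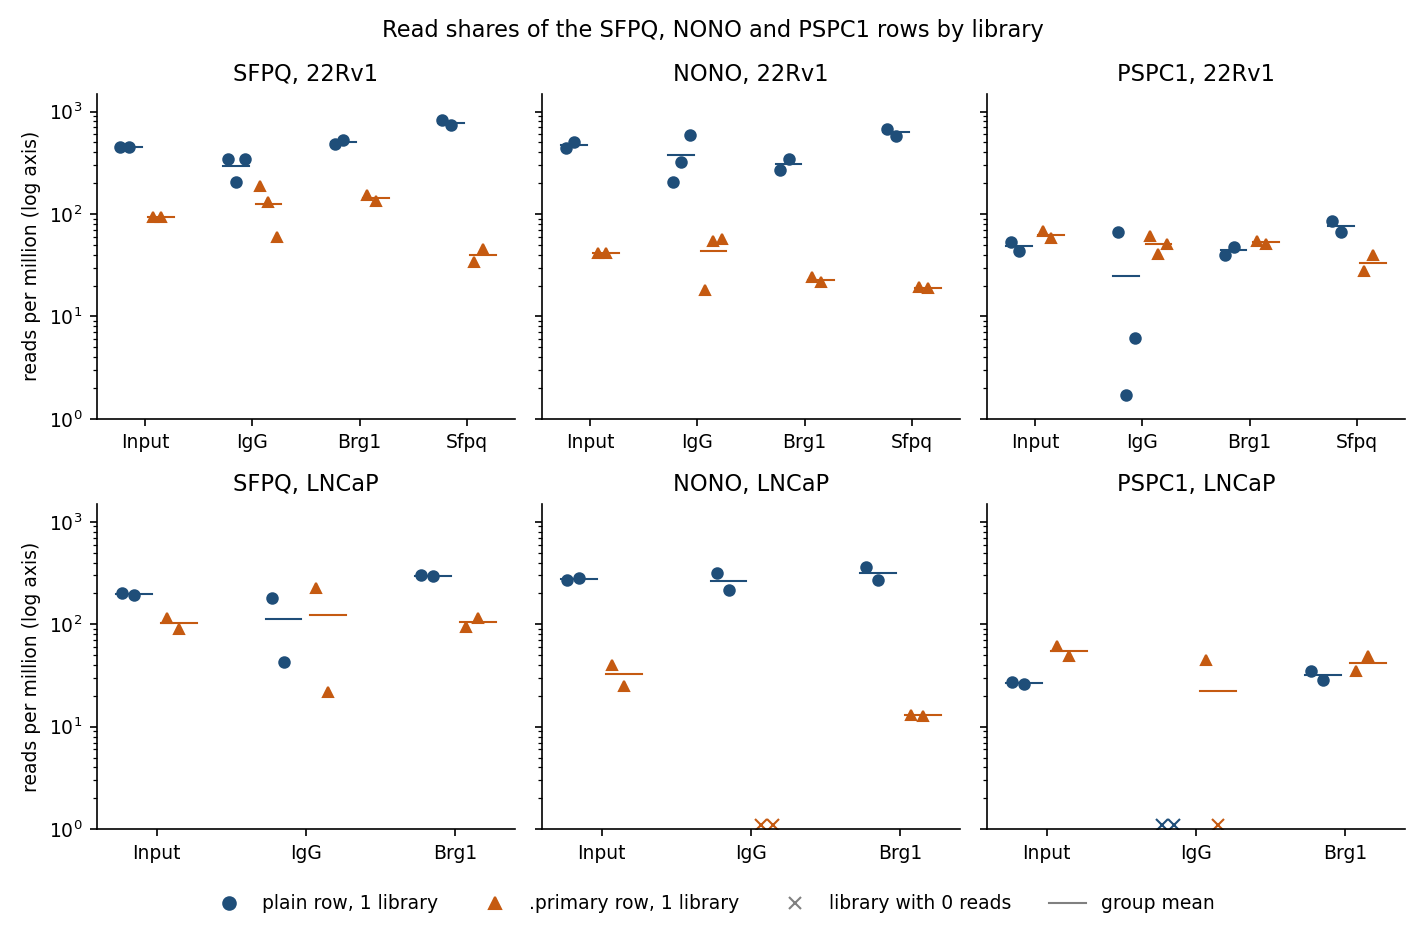
Read share in RPM (vertical log axis) for the plain rows (circles) and .primary rows (triangles) of SFPQ, NONO and PSPC1 by group, in 22Rv1 (upper panels) and LNCaP (lower panels). Each symbol is 1 library, short lines are group means and crosses on the lower edge are libraries with 0 reads. In 22Rv1 the Sfpq libraries had the highest plain SFPQ shares, 826 and 735, and the lowest SFPQ.primary shares, 34.0 and 45.6.

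The 2 rows of a gene can be set against each other within a library, which removes library scaling. Of the SFPQ reads, 17.1% (95% Wilson interval 16.6 to 17.6) and 17.1% (16.4 to 17.9) were on the .primary row in input. In Sfpq the shares were 3.96% (3.50 to 4.47) of 6142 reads and 5.84% (5.26 to 6.48) of 5736 reads. In Brg1 they were 24.2% (23.7 to 24.6) and 20.2% (19.7 to 20.7). The IgG libraries gave 35.5%, 38.9% and 14.6%, from 2345, 589 and 198 reads. The Sfpq libraries were lowest and did not overlap any other group, while Brg1 lay above input and inside the range of IgG. Wilson intervals cover counting error only.

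As a log2 ratio of the .primary to the plain row, SFPQ differed between Sfpq and input by -2.01 (SE 0.88, 95% interval -4.05 to 0.03, limma adjusted p 0.943). None of the 8246 genes with both rows passed in limma (0% called), with 356 at an unadjusted p under 0.05, and edgeR's interaction test called 0. The median gene also moved, by -0.91, and SFPQ was at the 11.5 percentile. In the fit of only Sfpq and input the limma adjusted p of the ratio was 9.82e-09 for SFPQ, 7.97e-05 for NONO and 9.86e-06 for PSPC1, with 5566 genes called. Between Sfpq and Brg1 the ratio of SFPQ differed by -2.46 (SE 0.88, limma adjusted p 0.164) beside a median of -2.04, and 0% of genes were called, with 1966 at an unadjusted p under 0.05 and 0 in edgeR. Without IgG replicate B or replicate C its limma adjusted p was 0.0375 or 0.0164, but 2419 or 2202 of the 8246 genes were then called.

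The low .primary shares were thus measured beside a shift of the whole library. Over all genes, .primary rows took 27.5% and 33.4% of the reads in Sfpq, 38.2% and 34.8% in input, 65.7% and 62.7% in Brg1, and 62.5%, 59.5% and 39.1% in IgG. Of the plain rows 60.3% stood above 0 in Sfpq against input, with a median of 0.22, and of the .primary rows 25.2% did, with a median of -0.52. The part of this library-wide shift in the values of SFPQ was not tested. How many other genes had .primary shares lowest in both Sfpq libraries was not counted.

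NONO forms heterodimers with SFPQ and acts in the same nuclear processes. Its gene lies on chromosome X from 71283635 to 71301168. The plain NONO row held 682 and 577 RPM in Sfpq, 440.1 and 506 in input, 266 and 343 in Brg1, and 206, 325 and 595 in IgG. Sfpq lay above input, Brg1 lay below input, and IgG spanned nearly the whole range. Sfpq differed from input by 0.41 (SE 0.45, 95% interval -0.63 to 1.45, limma adjusted p 1.0), at the 59.7 percentile of plain rows. Against IgG it differed by 0.87 (SE 0.41, limma adjusted p 0.220). Without IgG replicate C, the library with the highest NONO share of the 3, it differed by 1.27 (limma adjusted p 0.00984). In that fit 8836 of 22542 rows were called.

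NONO.primary held 19.3 and 18.9 RPM in Sfpq, 41.6 and 41.3 in input, 24.2 and 21.6 in Brg1, and 18.3, 54.8 and 57.0 in IgG. Both precipitates lay below input, and IgG replicate A was the lowest library of all. Sfpq differed from input by -1.08 (SE 0.66, limma adjusted p 1.0) and Brg1 by -0.83 (SE 0.66, limma adjusted p 0.914). The .primary share of NONO reads was 2.75% (2.34 to 3.25) and 3.17% (2.69 to 3.73) in Sfpq, 8.63% and 7.55% in input, 8.31% and 5.92% in Brg1, and 8.15%, 14.4% and 8.75% in IgG. The Sfpq libraries were again the lowest, without overlap, and how many other genes had this order was not counted. The log2 ratio of the rows differed between Sfpq and input by -1.49 (SE 0.72, limma adjusted p 0.943), at the 28.1 percentile of genes, whose median was -0.91. Between Sfpq and Brg1 it differed by -1.30, at the 69.6 percentile beside a median of -2.04.

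PSPC1, the paraspeckle component that gives the gene its name, marks these bodies and pairs with NONO and SFPQ. It spans 19671205 to 19782945 on chromosome 13 and overlaps MPHOSPH8 and RN7SL166P, so reads in the shared stretch may have been assigned to either gene. The plain row held 85.2 and 66.1 RPM in Sfpq, 53.7 and 44.0 in input, 40.2 and 47.9 in Brg1, and 66.2, 1.71 and 6.11 in IgG. Sfpq lay above input and Brg1 overlapped input. IgG was split, with 293 reads in replicate A and 3 reads each in replicates B and C. Sfpq differed from input by 0.62 (SE 1.27, 95% interval -2.30 to 3.53, limma adjusted p 1.0). That spread is estimated over all groups, the split IgG group included. In the fit of only Sfpq and input the limma adjusted p was 0.00405, where 13818 of 22529 rows were called.

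Against IgG the plain PSPC1 row in Sfpq differed by 2.80 (SE 1.16, limma adjusted p 0.169). Without IgG replicate A the limma adjusted p was 0.003, where 5874 of 22542 rows were called. No size is given because replicates B and C held 3 reads each. PSPC1.primary did not show this split, at 61.3, 41.1 and 50.9 RPM in IgG. It held 27.6 and 39.6 in Sfpq, 67.8 and 58.2 in input, and 54.8 and 51.1 in Brg1, with Sfpq below all other libraries. Sfpq differed from input by -0.91 (SE 0.43, 95% interval -1.89 to 0.08, limma adjusted p 0.831). The .primary share of PSPC1 reads was 24.5% (21.6 to 27.6) and 37.5% (34.1 to 40.9) in Sfpq against 55.8% and 57.0% in input and 57.7% and 51.6% in Brg1. The log2 ratio differed between Sfpq and input by -1.52 (SE 1.31, limma adjusted p 0.943), at the 26.9 percentile of genes, whose median was -0.91. Between Sfpq and Brg1 it differed by -1.42, at the 66.4 percentile beside a median of -2.04.

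By read share all 3 genes had the same order in Sfpq against input, the plain row higher and the .primary row lower in both libraries. At the deposited scaling the .primary rows stayed below input, but all 3 plain rows overlapped input. Plain SFPQ held 31803 and 17656 there in Sfpq against 22624 and 17071 in input. Plain NONO differed by -0.11 at that scaling. The ratios of mean read shares were 1.73, 1.33 and 1.55 for the plain rows of SFPQ, NONO and PSPC1, and 0.428, 0.461 and 0.533 for the .primary rows. The 95% intervals of the 3 plain rows overlapped, and differences between the genes were not tested. None of the 6 rows passed in the fit of all groups, beside the 0.0311% called among all rows. All 6 passed in the fit of only Sfpq and input, with limma adjusted p-values of 9e-05 for SFPQ, 9.8e-06 for SFPQ.primary, 0.0178 for NONO, 3.98e-05 for NONO.primary, 0.00405 for PSPC1 and 0.000372 for PSPC1.primary, as did SMARCA4 (0.00024), NEAT1 and MALAT1. That fit called 13818 of 22529 rows.

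**Figure D3:**
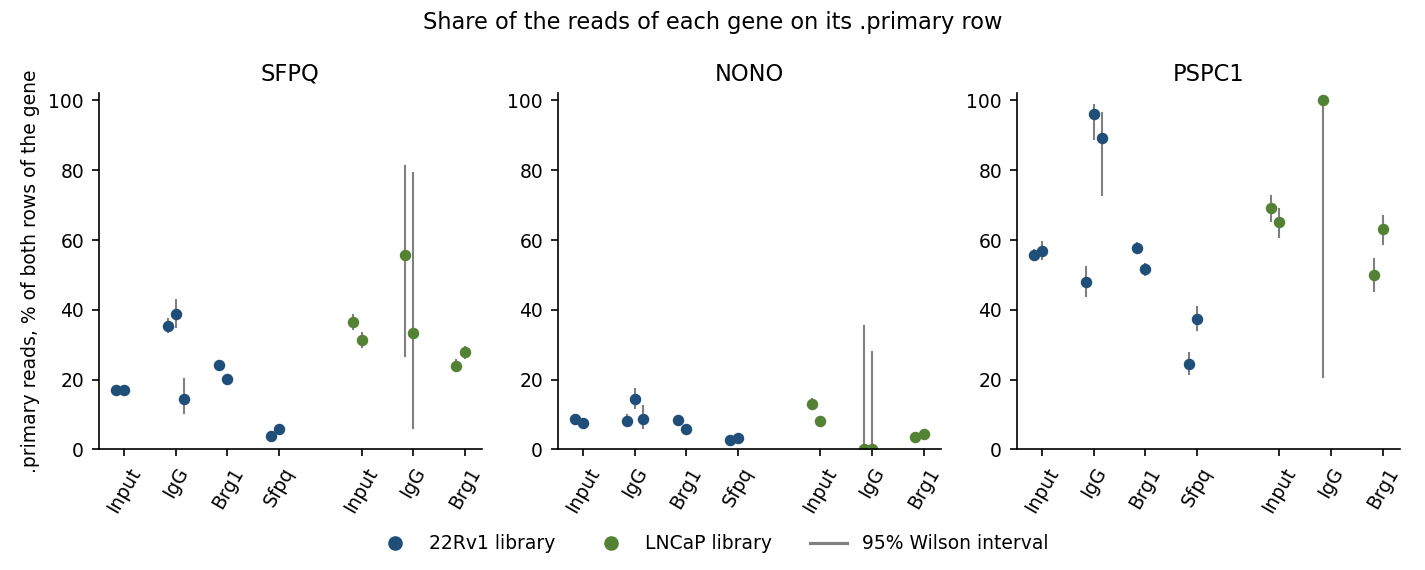
Share of the reads of SFPQ, NONO and PSPC1 that lay on the .primary row (vertical axis, %), by group, with 95% Wilson intervals as grey bars; each point is 1 library. In 22Rv1 the Sfpq libraries were lowest for each gene, as for SFPQ at 3.96% and 5.84% against 17.1% in both inputs. The median gene moved the same way, by -0.91 in log2 ratio between Sfpq and input, and how many other genes had this order was not counted.

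With the Brg1 antibody none of the 6 rows passed against input in either line in limma on the read shares of all groups. There 0.0799% of all rows were called in 22Rv1 and 0.0947% in LNCaP. In LNCaP, SFPQ, NONO.primary and PSPC1.primary passed in other fits of all groups, given below. In the 22Rv1 fit of only Brg1 and input, SFPQ.primary (limma adjusted p 0.000282), NONO (0.000594) and NONO.primary (9.62e-05) passed, beside 16144 of 22537 rows. In 22Rv1 plain SFPQ differed from input by 0.15 (SE 0.31, 95% interval -0.55 to 0.86, limma adjusted p 0.95; -0.27 at the deposited scaling) and SFPQ.primary by 0.61 (SE 0.52, 95% interval -0.59 to 1.81, limma adjusted p 0.928). Plain rows as a whole were lower in Brg1, with a median of -0.77 and 7.59% above 0. Against that shift SFPQ was at the 94.8 percentile of plain rows, PSPC1 at 89.1 and NONO at 59.5. Among .primary rows, whose median was 0.53, NONO.primary was at the 2.97 percentile, PSPC1.primary at 18.3 and SFPQ.primary at 53.2. The log2 ratio of the rows differed by 0.45 for SFPQ, -0.19 for NONO and -0.10 for PSPC1, where the median gene was at 1.1. No gene passed in limma (0% called), with 512 at an unadjusted p under 0.05 and 0 in edgeR.

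LNCaP gave a second set of Brg1 and input libraries. Plain SFPQ held 301 and 297 RPM in Brg1 and 200 and 195 in input, with Brg1 above input in both libraries. The difference was 0.59 (SE 0.74, 95% interval -1.45 to 2.63, limma adjusted p 1.0), at the 96.7 percentile of plain rows. DESeq2 gave 0.49 with an adjusted p of 0.00866, where 5581 of 22169 rows were called. At the deposited scaling, where the median row was at -1.46, SFPQ stood at -0.78. SFPQ.primary overlapped, at 94.9 and 114 in Brg1 and 116 and 89.0 in input.

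Plain NONO in LNCaP overlapped between Brg1, at 362 and 272 RPM, and input, at 268 and 283. NONO.primary did not, at 13.0 and 12.8 in Brg1 and 39.8 and 24.9 in input. The difference of NONO.primary was -1.22 (SE 0.30, 95% interval -2.03 to -0.41), with a limma adjusted p of 0.201, at the 1.15 percentile of .primary rows. Counts were modelled directly in edgeR on library totals, which gave -1.32 with an adjusted p of 0.00101, and in DESeq2, which gave -1.41 with an adjusted p of 3.33e-05. However, these 2 fits called 3872 and 5581 of 22169 rows. Leaving out IgG replicate A or B could not move the difference of -1.22, as IgG libraries enter it only through the spread. In both lines NONO.primary was thus low in Brg1 beside the other .primary rows. It missed the limma threshold in the fit of the read shares of all groups in each. At the deposited scaling it passed in LNCaP, at -2.65 (limma adjusted p 0.00344), where 16479 of 22169 rows were called. In the planned fit of only Brg1 and input it passed in both, at -0.83 (limma adjusted p 9.62e-05) in 22Rv1 and -1.22 (limma adjusted p 6.54e-05) in LNCaP, where 16144 of 22537 and 5976 of 22169 rows were called.

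PSPC1 in LNCaP held 35.3 and 28.7 RPM in Brg1 and 27.2 and 26.1 in input on the plain row. PSPC1.primary held 35.3 and 49.1 in Brg1 and 61.2 and 48.6 in input, which overlap. The differences were 0.25 (SE 0.26, limma adjusted p 0.991) and -0.38 (SE 1.97, limma adjusted p 1.0). At the deposited scaling PSPC1.primary passed, at -1.76 (limma adjusted p 0.00519), where the median row was at -1.46 and 16479 of 22169 rows were called. The log2 ratio of the rows differed by -0.56 for SFPQ, -1.41 for NONO and -0.63 for PSPC1, beside a median gene at 0.31. In limma 0% of genes passed, with 248 at an unadjusted p under 0.05, while edgeR called 824.

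The LNCaP IgG libraries add little. They held 4 and 2 reads of plain SFPQ, 5 and 1 of SFPQ.primary and 7 and 10 of NONO. NONO.primary and plain PSPC1 had 0 reads in both, and PSPC1.primary had 1 and 0. A count of 0 allows up to 135 and 64.8 RPM there, more than the Brg1 libraries held, so these rows could not be compared at this depth. limma did call NONO.primary (adjusted p 0.000519) and plain PSPC1 (adjusted p 0.000247) higher in Brg1 there. Those calls rest on IgG libraries with 0 reads, for which log2(RPM + 1) is 0 whatever their depth, and no size is given. SFPQ differed between Brg1 and IgG by 1.74 (SE 0.74, limma adjusted p 0.151) and NONO by 0.26 (SE 0.29, limma adjusted p 0.553), where 46.8% of rows were called. In this comparison SFPQ was at the 28.1 percentile of plain rows. It stood at 2.76 without IgG replicate A and at 0.72 without B, fits that keep 1 IgG library. SFPQ passed under TMM factors (2.69) and median-of-ratios factors (2.16) in limma, where 10686 and 10433 of 22169 rows were called. It also passed in edgeR with TMM (2.63) and in DESeq2 (2.11), where 1627 and 1855 rows were called. NONO passed under TMM factors in limma, at 1.21 (adjusted p 0.017). SFPQ.primary, at 0.56 with all libraries (limma adjusted p 0.778), stood at 2.22 without IgG replicate A and at -1.11 without B. Each of those fits keeps 1 IgG library, so the spread of IgG is not measured, and the sign turned with the library kept. At the deposited scaling all 3 passed, at 9.09 to 10.54, where the median row stood at 7.4. In 22Rv1 Brg1 against IgG, none of the 6 rows passed in limma on the read shares of all libraries, beside 9.6% of all rows. Plain SFPQ, at 0.79 (SE 0.28, adjusted p 0.152), passed without IgG replicate A (0.0465) or C (0.0334), and NONO.primary, at -0.74 (SE 0.61, adjusted p 0.538), passed without IgG replicate A (0.0218). Plain PSPC1 passed without IgG replicate A too (limma adjusted p 0.00522 against 0.371 with it), again beside IgG libraries of 3 reads each. Without IgG replicate A or C, 6485 or 6240 of 22542 rows were called.

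**Figure D4:**
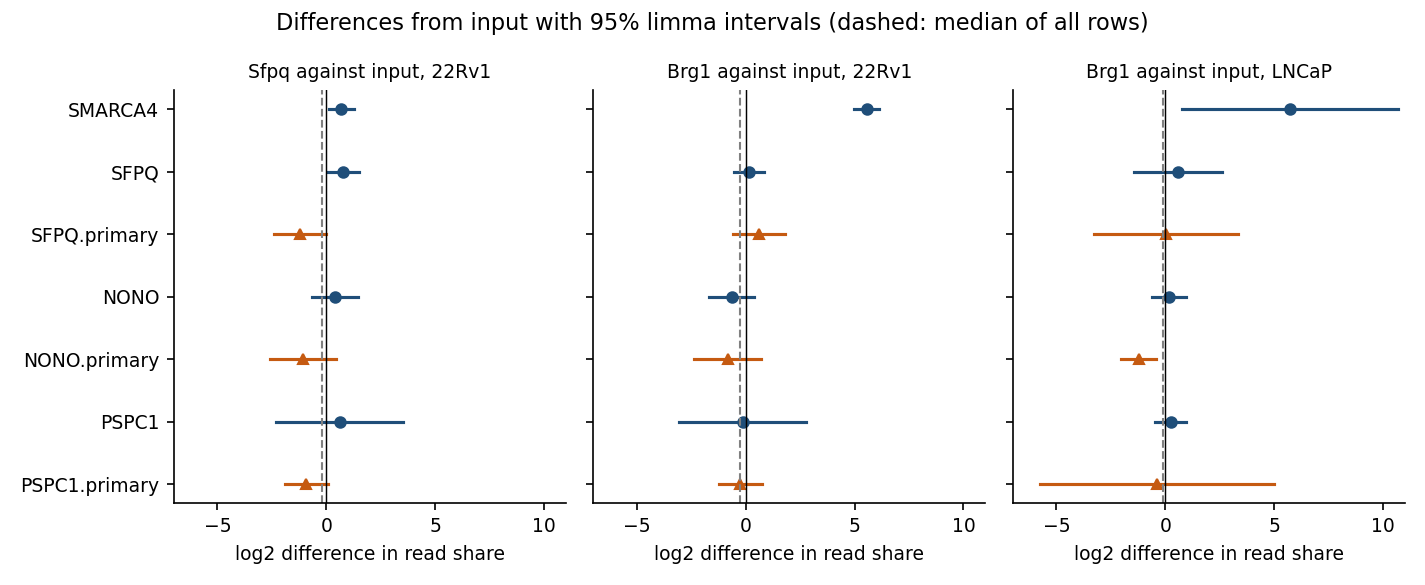
Log2 difference in read share from input (horizontal axis) for SMARCA4 and the rows of SFPQ, NONO and PSPC1, for Sfpq and Brg1 in 22Rv1 and Brg1 in LNCaP. Points (plain rows) and triangles (.primary rows) are limma estimates, bars their 95% intervals, and the dashed line the median of all rows. The SMARCA4 estimates with Brg1, at 5.55 in 22Rv1 and 5.74 in LNCaP, stood apart from those of the other rows drawn. In LNCaP the SMARCA4 interval, 0.78 to 10.7, overlapped those of other rows, such as SFPQ at -1.45 to 2.63.

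NEAT1, the scaffold RNA of paraspeckles, held 774 and 981 RPM in Sfpq, 447 and 379 in input, 1095 and 1088 in Brg1, and 1478, 1537 and 739 in IgG. All precipitates, non-specific IgG included, lay above input, and IgG overlapped Sfpq and Brg1. Non-specific IgG itself passed against input, at 1.53 (SE 0.35, limma adjusted p 0.027) and the 98.4 percentile of all rows. Sfpq exceeded input by 1.08 (SE 0.38, limma adjusted p 0.586) and overlapped IgG. It passed against input without IgG replicate C (limma adjusted p 0.0447) and in the fit of only Sfpq and input (1.34e-05). In LNCaP NEAT1 held 3329 and 3565 with Brg1, 1628 and 1378 in input and 992 and 972 with IgG, so that Brg1 was above both. The difference from input was 1.20 (SE 0.09, limma adjusted p 0.0613). It was past the threshold in edgeR on library totals (adjusted p 0.0395) and DESeq2 (1.04e-05), where 3872 and 5581 of 22169 rows were called.

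MALAT1, the nuclear speckle RNA encoded beside NEAT1, held 1275 and 1246 RPM in Sfpq against 2614 and 2738 in input and 6593 and 5801 in Brg1. It was the lowest in Sfpq, and the 3 IgG libraries, at 2449 to 4616, lay above Sfpq too. Sfpq was lower than IgG by limma, with a difference of -1.55 (SE 0.32, adjusted p 0.0191), and lower than Brg1, with -2.29 (SE 0.36, adjusted p 0.0283). Against input it was -1.08 (SE 0.36, limma adjusted p 0.525), and 0.0212 without IgG replicate C. Leaving out 1 library raised the limma adjusted p of MALAT1 to at most 0.254 against IgG (any library but IgG A or C ended that call) and 0.301 against Brg1 (any library but the 3 of IgG did). The call against Brg1 was also lost under TMM factors (0.0515) and median-of-ratios factors (0.0751) in limma and in edgeR on library totals (0.0614) and with TMM (0.0819). The call against IgG was lost with a minimum mean of 10 (limma adjusted p 0.0679) and in a fit of only Sfpq and IgG (0.231). At the deposited scaling MALAT1 stood above IgG, at 5.64, where the median row was at 7.12.

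A list of 38 other paraspeckle genes, NEAT1 among them, had 38 plain and 32 .primary rows in 22Rv1. In Sfpq against input 29 plain rows of the list stood above 0 and 9 below, with a median of 0.42. Of all plain rows 60.3% stood above 0, with a median of 0.22. Of the .primary rows of the list 6 stood above and 26 below, with a median of -0.57. Among all .primary rows 25.2% stood above 0, with a median of -0.52. No row of the list passed in either direction. In Brg1 against input 3 plain rows of the list stood above 0 and 35 below, at a median of -0.59. Its .primary rows split into 17 above and 15 below, at a median of 0.05. Among all rows 7.59% of plain rows stood above 0 (median -0.77) and 72.2% of .primary rows (median 0.53). Again no row of the list passed the threshold.

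Single rows of the list passed in other comparisons. In Sfpq against IgG 4 rows were higher and 1 lower in limma, beside 9.13% higher and 1.72% lower among all rows. Plain UBAP2L differed by 1.35 (adjusted p 0.0468), with 393 and 366 RPM in Sfpq and 92.7 to 214 in IgG. Plain SWI5 passed too (limma adjusted p 0.00802), but no size is given because it held at most 0.571 RPM in IgG, at or under 3 reads in each. DAZAP1.primary differed by 1.74 (adjusted p 0.00698), with 308 and 476 RPM in Sfpq, 104 to 136 in IgG and 134 and 156 in input. CIRBP.primary differed by 3.91 (adjusted p 0.0386), with 23.7 and 29.2 in Sfpq and 4.97, 0 and 0 in IgG, so its fold rests on the pseudocount. ENOX1.primary was lower in Sfpq than in IgG by limma, at -1.57 (adjusted p 0.0494), and lower than in Brg1, at -2.26 (adjusted p 0.0457). In Brg1 against IgG SWI5 and ZC3H6.primary passed in limma, beside 9.6% of all rows, the latter at 3.26 (adjusted p 0.0325), with 50.4 and 40.8 RPM in Brg1 and 1.81 to 8.15 in IgG. Each of these calls was lost when some single library was left out, with limma adjusted p-values of up to 0.306 for UBAP2L, 0.118 for DAZAP1.primary (without Sfpq replicate B only), 0.277 for CIRBP.primary, 0.296 and 0.379 for ENOX1.primary, 0.353 for ZC3H6.primary, and 0.0758 and 0.0939 for SWI5 in Sfpq and in Brg1. The UBAP2L call was also lost in edgeR, in DESeq2, under TMM and median-of-ratios factors, with a pseudocount of 0.1, a minimum mean of 10, rows summed and only the 2 groups fitted, with adjusted p-values of 0.0534 to 0.227. The CIRBP.primary call was lost in edgeR (0.147 and 0.186) and under TMM factors in limma (0.0586). The ENOX1.primary calls against IgG and Brg1 were lost under TMM (0.0842 and 0.099) and median-of-ratios factors (0.0853 and 0.128) in limma. At the deposited scaling ENOX1.primary stood above IgG, at 5.57. In LNCaP Brg1 against input 17 plain rows of 37 stood above 0 and 20 below, and 9 and 24 of 33 .primary rows, with none past the threshold. Among all rows there, 28.6% of plain rows and 60.1% of .primary rows stood above 0. In LNCaP Brg1 against the shallow IgG libraries limma called 15 of 37 plain rows higher and, of 33 .primary rows, 11 higher and 1 lower, beside 46.8% of all rows.

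The rows most like each gene were sought among 17403 rows with a mean of at least 10 RPM, by Pearson correlation over the 9 libraries of 22Rv1, which share depth and antibody groups. For SFPQ these were RAB3GAP1 (0.982), KNDC1.primary (0.965) and GATD1.primary (0.965). Over the 6 LNCaP libraries the same rows gave 0.129, -0.815 and 0.745. For NONO they were UBA2 (0.993), ZBTB18 (0.982) and STAT5B (0.98), with 0.372 for UBA2 and 0.351 for STAT5B in LNCaP. For PSPC1 they were LPIN1 (0.995), BICD1 (0.995) and BYSL (0.994), with 0.678, 0.701 and 0.993 in LNCaP. Plain PSPC1 held 3 reads each in IgG replicates B and C of 22Rv1 and 0 reads in both LNCaP IgG libraries. Plain SFPQ held 4 and 2 reads in the latter. How far these low counts set the correlations was not tested. None of the 3 genes was among the nearest rows of another, and the likeness of the SFPQ rows did not carry over to LNCaP except for GATD1.primary.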

How the data were processed

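The authors deposited 1 table of normalized signal per cell line. The submitters' processing notes name STAR 2.6, Salmon 0.8.2, deepTools 2.5.2, DESeq2 and the build hg38, without their roles. Within 0.001 read, 100% of the deposited signal values were whole multiples of 1 factor per library, so reads were recovered by division and expressed as RPM (reads per 1000000). How the factors were set is not given in the sources used here. limma 3.58.1 (R 4.3.3; lmFit, eBayes with trend) was run on log2(RPM + 1), over rows averaging 1 or more, fitting every group of a table together, with Benjamini-Hochberg adjustment over all rows at 0.05. The ratio test used log2 .primary minus log2 plain. Tables were tested apart. Alternatives used edgeR 4.0.16 and DESeq2 1.42.0. Scripts were tested on simulated data. The named rows were the DBHS genes, SMARCA4, NEAT1, MALAT1, called rows of the paraspeckle list and the 3 most correlated rows per gene. The genes and lists were chosen with earlier results of these data known. Same-lettered replicates did not deviate together, with correlations of -0.354 to 0.048, so no block was used. Positions are from RefSeq GRCh38.p14.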

Additional observations from a re-analysis of the deposited data

Results flagged for a closer look

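The .primary share of SFPQ reads moved in opposite directions between Brg1 and input in the 2 lines, in every library. In 22Rv1 it was 24.2% and 20.2% in Brg1 against 17.1% and 17.1% in input. In LNCaP it was 24.0% and 27.8% in Brg1 against 36.6% and 31.3% in input. The log2 ratio of the .primary to the plain row differed for the median gene by 1.1 in 22Rv1 and 0.31 in LNCaP. SFPQ lay below the median gene in both lines. Whether the lines differ was not tested. Within each line the log2 ratio did not pass in limma, at 0.45 (adjusted p 0.927) in 22Rv1 and -0.56 (adjusted p 1.0) in LNCaP.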

How the results depend on the processing

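The Sfpq against input differences of SFPQ (0.79), SFPQ.primary (-1.22) and the SFPQ row ratio (-2.01), and the Brg1 against input differences of SMARCA4 (5.55 in 22Rv1, 5.74 in LNCaP), kept their direction under every alternative run. The first 3 passed only in fits of the 2 groups compared or without IgG libraries, at the same 0.79, -1.22 and -2.01, where 13818 and 13682 rows and 5566 and 5518 genes were called in place of 7 and 0. SMARCA4 in LNCaP passed in those fits at 5.74, at the deposited scaling at 4.37, in edgeR at 5.75 (library totals) and 5.81 (TMM) and in DESeq2 at 5.65. Leaving out each library gave 0.70 to 0.87 for SFPQ, -1.42 to -1.01 for SFPQ.primary, -2.30 to -1.72 for the ratio, 5.36 to 5.75 for SMARCA4 in 22Rv1 and 5.59 to 5.89 in LNCaP, where leaving out IgG replicate A or B brought it past the threshold at 5.74.

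Rows called ranged over the alternatives from 0 to 13818 (main 7) in Sfpq against input, 271 to 22446 (2446) in Sfpq against IgG, 48 to 17649 (630) in Sfpq against Brg1, 2 to 16144 (18) in Brg1 against input and 64 to 22489 (2164) against IgG, and in LNCaP 1 to 16479 (21) and 1328 to 22088 (10374). Leaving out IgG replicate C of 22Rv1 gave 129 and 1406 rows against input for Sfpq and Brg1. The deposited scaling moved the median of all rows from 0.83 to 7.12 in Sfpq against IgG, from -0.19 to -0.72 against input and from -0.08 to -1.46 in LNCaP Brg1 against input; the higher share of called rows there went from 52.4% to 0.279%.

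Reversed at the deposited scaling were, in Sfpq against IgG, SFPQ.primary (5.60), NONO.primary (5.98), PSPC1.primary (6.44), ENOX1.primary (5.57) and MALAT1 (5.64), and NONO against input (-0.11). With Brg1 in 22Rv1 they were SFPQ against input (-0.27) and NONO (7.08) and NONO.primary (6.33) against IgG. In LNCaP Brg1 against input they were SFPQ (-0.78), SFPQ.primary (-1.34), NONO (-1.19), PSPC1 (-1.12), NEAT1 (-0.17) and MALAT1 (-1.11). The cause was not tested. In 22Rv1 Brg1, PSPC1 against input was 0.06 under TMM in limma and edgeR. PSPC1.primary against IgG was -0.08 (TMM, limma), -0.13 (TMM, edgeR), -0.24 (median of ratios) and -0.29 (DESeq2), and SFPQ.primary -0.09 (TMM, edgeR) and -0.23 (DESeq2). In LNCaP, SFPQ.primary against input was -0.06 (median of ratios) and -0.07 (DESeq2). With rows summed, PSPC1 was -0.03 in Sfpq and -0.13 in LNCaP Brg1 against input. Leaving out 1 library reversed 9 results, with these ranges. In 22Rv1 Brg1 against IgG, NONO ran from -0.54 to 0.22 (0.01 without Brg1 A, 0.22 without IgG C), PSPC1.primary from -0.08 (without IgG B) to 0.21 and SFPQ.primary from -0.14 (without IgG C) to 0.69. In 22Rv1 Brg1 against input, the ratio of NONO ran from -0.45 to 0.07 and that of PSPC1 from -0.27 to 0.07 (both 0.07 without Brg1 B). In LNCaP Brg1 against input, NONO ran from -0.02 (without Brg1 A) to 0.39 and SFPQ.primary from -0.15 (without Input B; -0.10 without Brg1 B) to 0.22. Against IgG, NONO ran from -0.01 to 0.54 and SFPQ.primary from -1.11 to 2.22 (both lowest without IgG B).

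With the replicate letter as a block SFPQ in Sfpq against input stayed at 0.79 and was not called, while SFPQ.primary (-1.83, limma adjusted p 0.0286) and the SFPQ ratio (-2.46, 0.0441) in Sfpq against Brg1 passed, as did SFPQ.primary (-1.97) and NONO (1.27) in Sfpq and SFPQ (0.92) in Brg1 against IgG. The block, which drops IgG C, reversed SFPQ.primary (-0.14) and NONO (0.22) in Brg1 against IgG, at the same values with letters crossed. It called 3, 190 and 3 rows against input for Sfpq, Brg1 and LNCaP Brg1, and 4, 669 and 3 with letters crossed. In Sfpq against Brg1 the block called 2593 of 22542 rows and, for the ratio, 1415 of 8246 genes. Against IgG it called 7968 rows for Sfpq and 5466 for Brg1 in 22Rv1. Depth limits the LNCaP IgG values most.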
